A study of Mus musculus with 19 samples.

Results

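The genes described here make ribosomes or build the nucleolus. They were listed by name from general knowledge as factors of ribosomal RNA (rRNA) transcription, nucleolar scaffolds, small nucleolar RNA particles and ribosome assembly factors, with Myc added. Of 40 listed genes, 39 were found by symbol among the 22958 genes of the expression table. Noc2l was left out because its symbol was not in the table.

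RNA was sequenced from 3 libraries of glia and 4 libraries of glial progenitor cells (GPC), both derived from mouse embryonic stem cells (ESC). GPC came from ESC that were induced to neural fate in N2B27 medium with 0.1 µM all-trans retinoic acid, sorted at day 8 with magnetic beads against the surface antigen A2B5, and grown on fibronectin with EGF and FGF2 at 10 ng/ml. The labels give the same growth text for glia, so the sources used here do not give the steps that turned progenitors into glia, the ESC line or the age of either culture. The sort with A2B5 beads limits GPC to cells that carried that antigen at that day. No allele or transgene is named for any library. Peak lists of SOX3 (2 samples) and SOX9 (3 samples), both from GPC, were used only to see whether a peak had been paired with these genes.

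A ribosome begins in the nucleolus, where RNA polymerase I copies the repeated rRNA genes into a long precursor. Small nucleolar particles guide chemical marks onto that precursor, and large assemblies of proteins cut it, fold it and load it with ribosomal proteins to form the small and the large subunit. Growing and dividing cells run this pathway at a high rate, and MYC is a known activator of many of its genes.

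The 7 libraries held 6897294 to 17369367 reads in genes in glia and 12836998 to 22439837 in GPC. GPC replicate 3 stood apart from the other GPC libraries, and it was the deepest. Pairs with it had a chi-square per gene, which grows with depth, of 24.6 to 28.4. Glia pairs had 4.16 to 9.58 and the other GPC pairs 2.00 to 3.46. Its content differed too: astrocyte markers summed to 986 RPKM, beside 540 to 560 RPKM in the other GPC libraries and 7976 to 10240 RPKM in glia. Cell cycle genes summed to 1994 RPKM in it and to 2429 to 2556 RPKM in the other GPC libraries. What set it apart was not tested. No label ties a library to a culture of its own, and the spread that the p-values rest on may therefore be technical. All 10 astrocyte markers and all 10 markers of maturing oligodendrocytes were called higher in glia. Of 7 neural progenitor markers 3 were called lower and 2 higher in glia, with a median log2 change of 0.04. All 3 falls were of at least 2-fold and no rise was. The 7 summed to 3271 to 3323 RPKM in glia and 6954 to 7445 RPKM in GPC. Of 6 markers of oligodendrocyte precursors 3 were lower and 3 higher, and they summed to 810 to 1058 RPKM in glia and 1594 to 1769 RPKM in GPC. Of 8 neuron markers 5 were called higher and 1 lower in glia, and they summed to 226 to 243 RPKM in glia and 168 to 187 RPKM in GPC. The 7 microglia markers summed to at most 0.260 RPKM in any library, while all 8 mesenchyme markers were called higher in glia and summed to 655 to 797 RPKM in glia and 149 to 162 RPKM in GPC. The part of neurons or mesenchyme-type cells in the results below was not tested.

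Ribosome biogenesis and nucleolar genes were lower in glia almost without exception. Of the 39 genes, all of which passed the filter on low counts, 37 fell (94.9%), none rose and 2 did not pass the test (two-sided quasi-likelihood F test of edgeR, threshold 0.05 after Benjamini-Hochberg adjustment over 13588 genes). Over all genes tested 35.2% fell and 35.2% rose. Among the 9109 tested genes whose mean level was at or above that of the lowest of the 39, 42.7% fell. The same count of 37 was found without GPC replicate 3.

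The falls ran from a log2 change (glia over GPC) of -1.93 for Fbl to -0.19 for Nol6. The median was -0.72, a level 1.64-fold lower, with quartiles at -0.87 and -0.49, and the median of all genes tested was 0.00. Of the 37 genes that fell, 4 were lower by at least 2-fold, 21 by 1.5 to 2-fold and 12 by less than 1.5-fold. The 4 genes are 10.3% of the set, and 9.24% of all genes tested, or 8.72% of those at the level named above, were lower by at least 2-fold, so large falls were about as frequent here as in the whole table.

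Summed over the 39 genes, glia replicates 1 to 3 gave 1192, 1178 and 1184 RPKM (reads scaled by gene length and library size), and GPC replicates 1 to 4 gave 2023, 2073, 2060 and 2018 RPKM. These sums hardly differed within a group, with SDs of 7.23 RPKM in glia (n = 3) and 27.5 RPKM in GPC (n = 4). Npm1 alone gave 255 RPKM of the mean sum in glia and 464 RPKM in GPC, and single genes differed more between libraries than the sums. As a share of all gene reads they took 0.299% ± 0.00334 in glia and 0.491% ± 0.00596 in GPC (SD, n = 3 and 4). In 37 of the 39 genes every glia library lay below every GPC library, which was so for 34.2% of all genes tested. These are bulk libraries scaled to their own totals, so a lower share of dividing cells, less of these transcripts per cell and a change in total RNA per cell cannot be told apart.

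**Figure D1:**
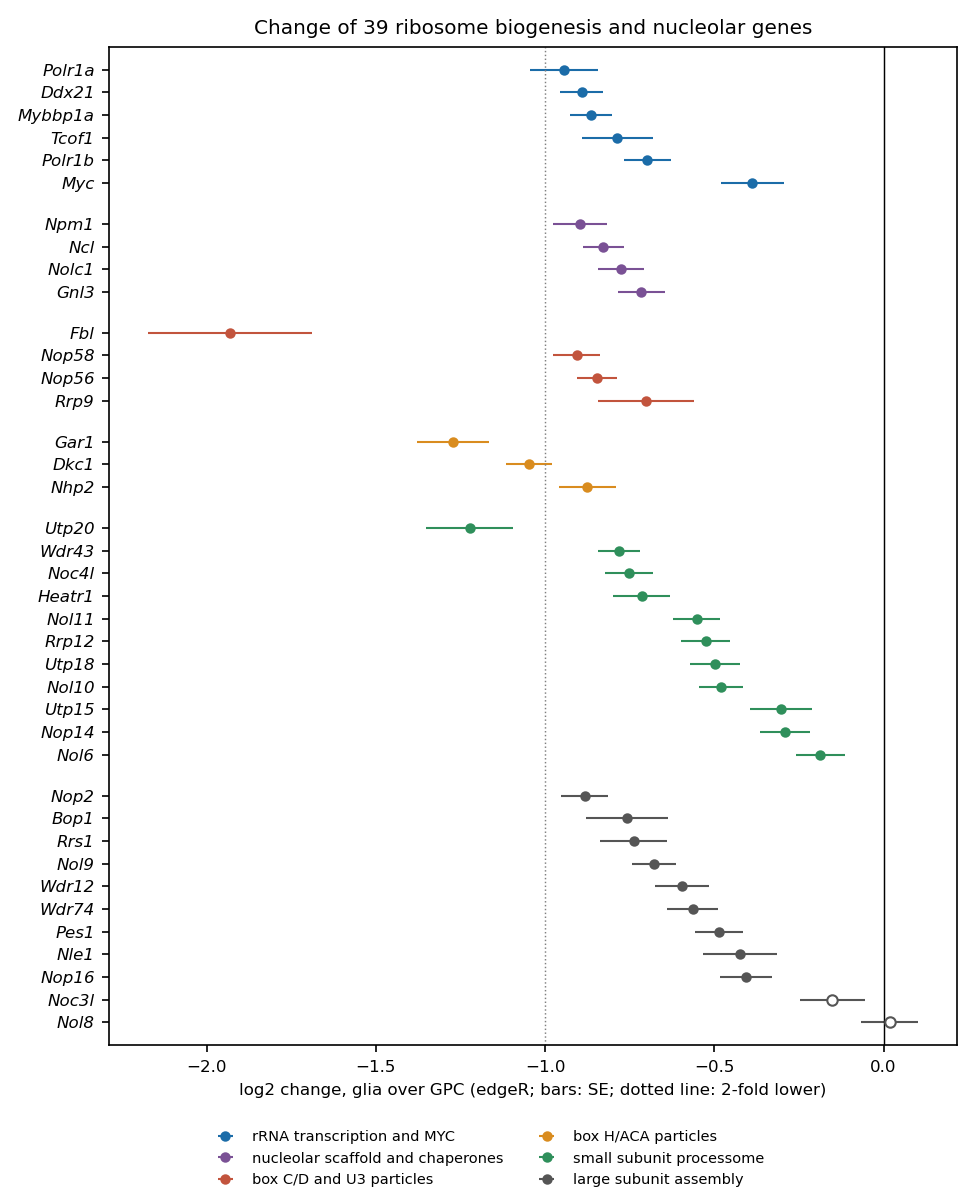
Log2 change of each of the 39 genes in glia over GPC (points, with bars for the SE of the fit over 3 glia and 4 GPC libraries), grouped by role; open points did not pass the test. All filled points lie left of 0, and Fbl, Gar1, Utp20 and Dkc1 lie beyond the dotted line of a 2-fold lower level.

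The 6 listed genes of rRNA transcription and MYC were all lower in glia, and Myc fell least among them. Of 14 other tested genes of RNA polymerase I, described below, 7 fell, 1 rose and 6 did not pass. Polr1a, the largest subunit of RNA polymerase I, had 9.55, 10.4 and 8.01 RPKM in glia and 18.5, 17.5, 15.2 and 18.7 RPKM in GPC. All glia libraries were below all GPC libraries, and the log2 change was -0.94 ± 0.10 (SE). Polr1b, the second largest subunit, averaged 8.60 ± 0.273 RPKM in glia and 13.6 ± 0.346 RPKM in GPC (SD, n = 3 and 4), a log2 change of -0.70.

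Ddx21, an RNA helicase of the nucleolus that acts at rRNA genes, had 31.8, 34.4 and 30.1 RPKM in glia and 59.8, 58.8, 56.6 and 57.7 RPKM in GPC. The 2 groups were far apart relative to their spread, and the log2 change was -0.89 ± 0.06 (SE). Mybbp1a, a nucleolar protein that binds the MYB factor, averaged 44.5 RPKM in glia and 79.4 RPKM in GPC (log2 change -0.86). Tcof1, the gene of treacle, which ties RNA polymerase I to its sites, averaged 8.97 RPKM in glia and 15.1 RPKM in GPC (log2 change -0.79). Myc had the highest adjusted p of the 6, at 0.00355 (edgeR, Benjamini-Hochberg).

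Myc, which encodes the growth-promoting transcription factor MYC, had 56.6, 58.0 and 59.5 RPKM in glia and 69.1, 68.9, 87.3 and 71.6 RPKM in GPC. The glia libraries were all lower, but by a small margin, and the highest GPC value came from replicate 3. The log2 change was -0.39 ± 0.09 (SE), or -0.30 without GPC replicate 3. Whether Myc fell less than the other 38 genes was not tested.

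The partners and relatives of Myc moved in both directions, and more were higher than lower in glia. MAX is the shared partner of this family, MXD proteins and MNT compete with MYC for MAX and repress, and MYCN and MYCL are relatives of MYC. Of 12 network genes other than Myc, 7 rose, 2 fell and 3 did not pass, with a median log2 change of 0.34, beside backgrounds of 35.2% in each direction. Mxd1 had 9.11, 9.45 and 9.08 RPKM in glia and 4.09, 3.76, 4.51 and 3.89 RPKM in GPC, a log2 change of 1.14 ± 0.09 (SE, adjusted p = 1.08e-06 by edgeR, Benjamini-Hochberg). Every glia library was above every GPC library.

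Mxi1 averaged 17.7 ± 0.979 RPKM in glia and 10.0 ± 3.56 RPKM in GPC (SD, n = 3 and 4), a log2 change of 0.75. GPC replicate 3 was the highest of its group, at 15.3 RPKM beside 7.72 to 9.15 RPKM in the other GPC libraries, and without it the log2 change was 1.07. Its adjusted p was 0.0255 by edgeR, and the call ended in 6 of the 13 alternative settings, where the adjusted p reached 0.0795. Mxd3, a member of the MXD family known for its expression in dividing cells, went the other way, with 9.37, 9.28 and 10.8 RPKM in glia and 36.0, 33.6, 27.1 and 35.0 RPKM in GPC (log2 change -1.76 ± 0.12). Mycn was low, at 1.14 ± 0.494 RPKM in glia and 2.41 ± 0.915 RPKM in GPC, and its groups overlapped. Its log2 change of -1.04 (adjusted p = 0.0241 by edgeR) lost the call without glia replicate 2 (0.0634) or 3 (0.0785), and was -0.69 without GPC replicate 3. Other genes of the network that rose, named after their values were seen, were Mxd4 (log2 change 0.61), Max (0.26), Mycl (0.42), Mnt (0.41) and Mlxip (0.46).

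**Figure D2:**
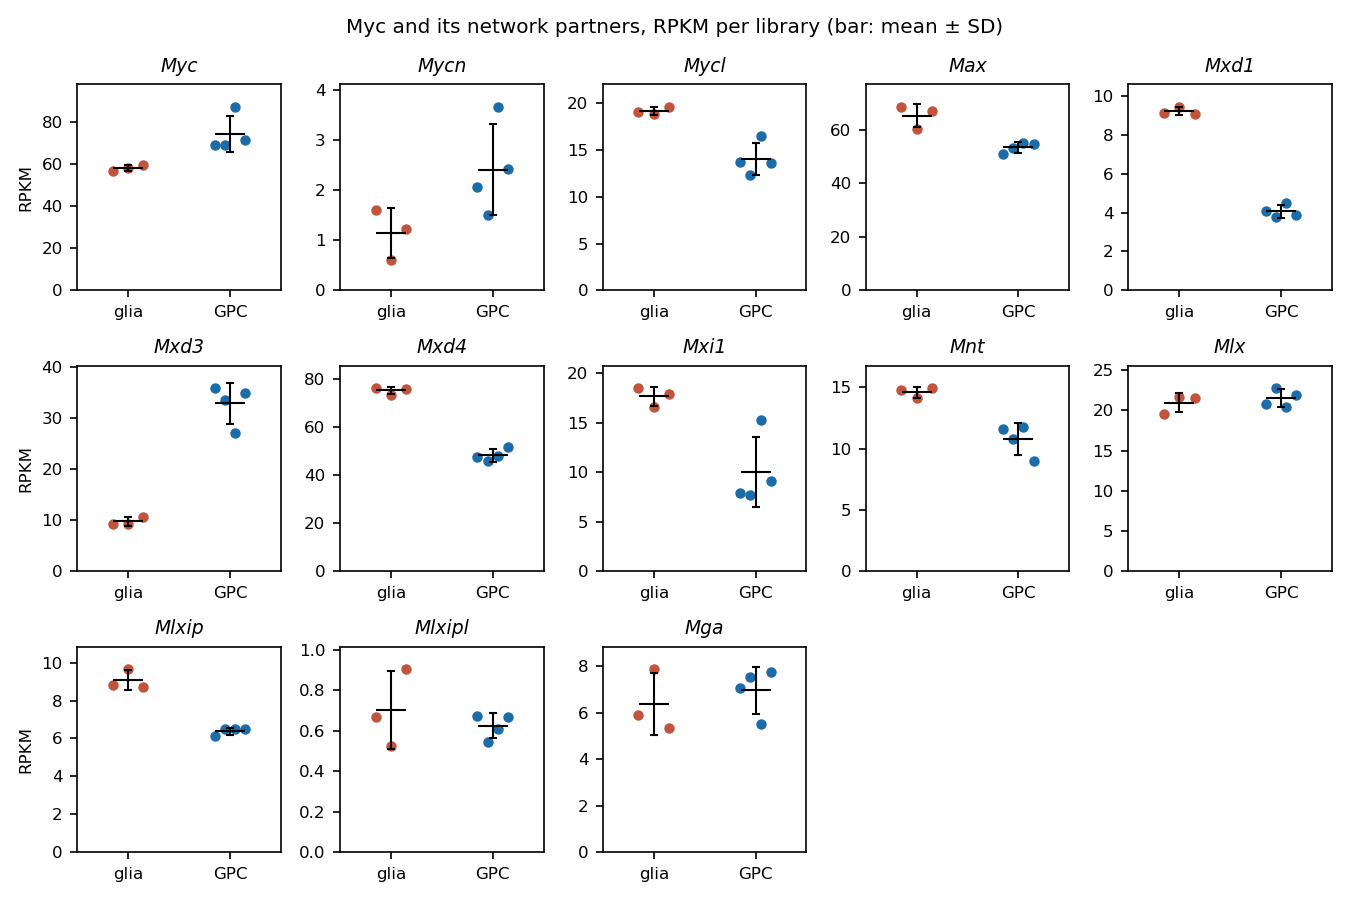
RPKM of Myc and its 12 network genes in each library of glia (left) and GPC (right), with the mean and SD as a black bar, on axes that start at 0. Myc is lower in all 3 glia libraries and Mxd1, Mxd4, Max, Mycl, Mnt, Mxi1 and Mlxip are higher in all 3 in RPKM, while the groups of Mycn overlap; on TMM-scaled counts the groups of Mxi1 overlap too.

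MYC and MAX bind the E-box, whose letters CACGTG read the same on both strands, so promoters of the genes were searched for it. A RefSeq promoter table of build GRCm38.p6 (250 bases before to 50 after each gene start) held 31 of the 39 genes, and 8 of these (25.8%) had an E-box in a window. The share was 8.09% over the 27025 genes of that table and 11.8% over the 9621 genes that were also tested here. The 3 promoters with the E-box before the start are shown over the 120 bases that lead up to it, with the E-box in capitals, written 5′ to 3′ on the strand of the gene.
Nop2, chr6:125131763-125131882, plus strand: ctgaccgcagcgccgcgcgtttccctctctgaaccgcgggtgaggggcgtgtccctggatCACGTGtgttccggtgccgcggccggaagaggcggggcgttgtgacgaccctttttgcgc
Nol11, chr11:107189382-107189501, minus strand: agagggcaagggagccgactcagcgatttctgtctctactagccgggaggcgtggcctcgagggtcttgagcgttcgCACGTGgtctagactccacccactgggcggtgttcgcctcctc
Utp18, chr11:93885767-93885886, minus strand: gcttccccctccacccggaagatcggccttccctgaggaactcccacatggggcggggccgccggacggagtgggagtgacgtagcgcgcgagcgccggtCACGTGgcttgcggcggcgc
The first base of the E-box lay at -60 in Nop2, -43 in Nol11 and -20 in Utp18, where -1 is the base before the start. In Pes1, Wdr43, Nle1, Utp20 and Mybbp1a it lay after the start, at 3, 18, 24, 38 and 41. The 8 genes with an E-box had a median log2 change of -0.67 (from -1.22 to -0.42), and the 23 without one had -0.71 (from -1.27 to 0.02), which lie close to each other.

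The motif CCGGAAGT, the core bound by ETS factors such as GABP, was searched on both strands and does not overlap with the E-box letters. It was found in 5 of the 31 promoters (16.1%), against 4.31% of all genes of the promoter table and 8.46% of the tested ones. Gar1 and Nhp2, which encode subunits of the same particle, were among the 5, and their promoters are shown because both genes had log2 changes beyond the median of the set.
Gar1, chr3:129831397-129831516, minus strand: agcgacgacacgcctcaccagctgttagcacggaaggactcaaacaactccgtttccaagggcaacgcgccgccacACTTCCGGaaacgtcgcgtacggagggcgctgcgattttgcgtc
Nhp2, chr11:51619653-51619772, plus strand: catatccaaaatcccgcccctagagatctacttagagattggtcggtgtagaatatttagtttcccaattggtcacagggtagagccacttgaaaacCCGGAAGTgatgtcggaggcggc
Capitals mark the motif, which in Gar1 lies on the opposite strand and reads ACTTCCGG. Its first base lay at -44 in Gar1 and -23 in Nhp2, and at -16 in Heatr1, -81 in Nol10 and -27 in Wdr74. The 5 genes had a median log2 change of -0.71, as had the other 26.

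The genes of abundant nucleolar scaffold proteins all fell, with log2 changes from -0.90 to -0.72. Npm1 encodes nucleophosmin, a chaperone of the outer nucleolus, and had 260.1, 265 and 241 RPKM in glia and 425, 477, 508 and 447 RPKM in GPC. The groups did not overlap and the log2 change was -0.90 ± 0.08 (SE). Ncl encodes nucleolin, which binds rRNA and its genes, and had 83.9, 88.6 and 82.1 RPKM in glia and 145, 151, 147 and 147 RPKM in GPC. Its 4 GPC libraries lay within a few RPKM of each other, and the log2 change was -0.83 ± 0.06 (SE).

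Nolc1, whose protein Nopp140 carries small nucleolar particles, averaged 33.1 ± 0.511 RPKM in glia and 55.4 ± 3.08 RPKM in GPC (SD, n = 3 and 4), and Gnl3, the gene of the stem cell protein nucleostemin, 34.1 ± 2.25 RPKM in glia and 54.6 ± 1.99 RPKM in GPC. Their log2 changes were -0.78 and -0.72. The largest adjusted p among the 4 genes was 6.78e-06 (edgeR, Benjamini-Hochberg).

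Genes for proteins of the box C/D particles, which methylate rRNA, fell. Among them Fbl, the gene of the methyltransferase fibrillarin, had the largest log2 change of the 39 genes. Fbl had 39.9, 29.6 and 38.5 RPKM in glia and 148, 175, 86.5 and 151 RPKM in GPC. All glia libraries were lower, but GPC replicate 3 stood far below the other GPC libraries, at 0.548 times their mean. The log2 change was -1.93 ± 0.24 (SE, adjusted p = 8.28e-05 by edgeR, Benjamini-Hochberg), and -2.10 without GPC replicate 3.

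The size of this change rests on few reads. The length behind each RPKM value, worked out from the counts, the RPKM and the reads used for scaling, was 193 bases for Fbl, the shortest of the set, and the gene had 40 to 133 reads in glia and 368 to 442 reads in GPC. Its partners in the particle rest on more. Nop58 had 40.6, 43.0 and 38.4 RPKM in glia and 74.2, 78.9, 68.9 and 76.0 RPKM in GPC, a log2 change of -0.91 ± 0.07. Nop56 averaged 52.0 ± 0.940 RPKM in glia and 91.6 ± 1.28 RPKM in GPC (log2 change -0.85). Snu13, the fourth core protein, which is not of the 39 and was named after its value was seen, averaged 64.7 RPKM in glia and 102 RPKM in GPC (log2 change -0.68). Rrp9, the protein specific to the U3 particle that guides early cuts, averaged 20.0 ± 3.17 RPKM in glia and 32.2 ± 4.75 RPKM in GPC (log2 change -0.70).

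The box H/ACA particles turn uridine into pseudouridine, and the 3 genes of their core all fell. Gar1 had 13.9, 14.3 and 14.8 RPKM in glia and 35.0, 36.9, 28.2 and 36.2 RPKM in GPC, with a log2 change of -1.27 ± 0.11 (SE). Dkc1, the pseudouridine synthase dyskerin, had 18.8, 18.5 and 18.4 RPKM in glia and 35.9, 38.5, 39.3 and 36.4 RPKM in GPC, with a log2 change of -1.05 ± 0.07. Neither gene had a glia library near the GPC range. Nhp2 averaged 64.2 ± 7.30 RPKM in glia and 116 ± 2.04 RPKM in GPC (log2 change -0.88), and Nop10, the remaining core protein, named after its value was seen, 65.5 RPKM in glia and 109 RPKM in GPC (log2 change -0.75). The largest adjusted p of Gar1, Dkc1 and Nhp2 was 6.49e-06 (edgeR, Benjamini-Hochberg).

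The small subunit processome, the assembly that cuts and folds the precursor of the small subunit, had 11 genes in the set and all 11 fell, with log2 changes from -1.22 to -0.19. Utp20, a very large scaffold protein, had 3.60, 4.53 and 3.33 RPKM in glia and 9.10, 9.77, 7.04 and 8.67 RPKM in GPC. The lowest GPC value, again from replicate 3, was still above all glia values, and the log2 change was -1.22 ± 0.13 (SE), or -1.32 without GPC replicate 3. Wdr43 had 20.3, 22.2 and 21.3 RPKM in glia and 35.4, 35.7, 37.0 and 34.9 RPKM in GPC, with a log2 change of -0.78 ± 0.06.

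Wdr43 belongs with Heatr1, Nol11 and Utp15 to the group of processome proteins that is also needed for rRNA transcription. Heatr1 had a log2 change of -0.71 ± 0.08, Nol11 of -0.55 ± 0.07 and Utp15 of -0.30 ± 0.09 (SE), and whether these differ was not tested. Noc4l (-0.75), Rrp12 (-0.53), Utp18 (-0.50) and Nol10 (-0.48) lay between. At the low end were Nop14 (-0.29) and Nol6.

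Nol6 had 20.3, 19.9 and 21.8 RPKM in glia and 25.2, 23.0, 22.2 and 21.9 RPKM in GPC. The highest glia and the lowest GPC value almost met. Its log2 change of -0.19 ± 0.07 (SE) had an adjusted p of 0.0405 by edgeR, Benjamini-Hochberg, and the call ended in 7 of the 13 alternative settings, with values up to 0.127. The call of Utp15 (adjusted p = 0.0127) ended without glia replicate 3 (0.0551).

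Among the factors that assemble the large subunit, 9 of 11 genes fell and the other two were near 0. Nop2, an rRNA methyltransferase also known as a proliferation antigen, had 19.8, 20.5 and 20.0 RPKM in glia and 39.0001, 33.9, 36.6 and 35.7 RPKM in GPC, a log2 change of -0.88 ± 0.07 (SE). Bop1 had 30.7, 23.6 and 31.7 RPKM in glia and 50.2, 41.8, 53.6 and 45.7 RPKM in GPC, a log2 change of -0.76 ± 0.12. Within each group Bop1 varied more than Nop2, with glia replicate 2 and GPC replicate 2 at the low ends.

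Bop1 forms the PeBoW complex with Pes1 and Wdr12, which is needed to process the precursor of the large subunit rRNA. Pes1 averaged 34.9 ± 0.512 RPKM in glia and 47.9 ± 2.94 RPKM in GPC (log2 change -0.49), and Wdr12 averaged 9.03 ± 0.587 RPKM in glia and 12.9 ± 0.466 RPKM in GPC (log2 change -0.60, SD, n = 3 and 4). The other genes that fell were Rrs1 (log2 change -0.74), which helps to place the 5S particle, Nol9 (-0.68), a kinase that acts on the cut precursor, Wdr74 (-0.56) and Nle1 (-0.42), which help to release assembly factors from the particle, and Nop16 (-0.41).

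Noc3l, a partner of the nucleolar complex that carries the large subunit precursor, had 9.36, 10.5 and 9.33 RPKM in glia and 9.60, 9.66, 11.8 and 11.1 RPKM in GPC. The groups overlapped, and the log2 change of -0.15 ± 0.10 (SE) did not pass (adjusted p = 0.178 by edgeR, Benjamini-Hochberg). Nol8 had 7.71, 8.07 and 7.00 RPKM in glia and 6.84, 7.17, 7.86 and 7.33 RPKM in GPC, and its log2 change was 0.02 ± 0.09 (adjusted p = 0.859 by edgeR, Benjamini-Hochberg). These were the 2 genes of the set for which no difference was detected between glia and GPC.

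**Figure D3:**
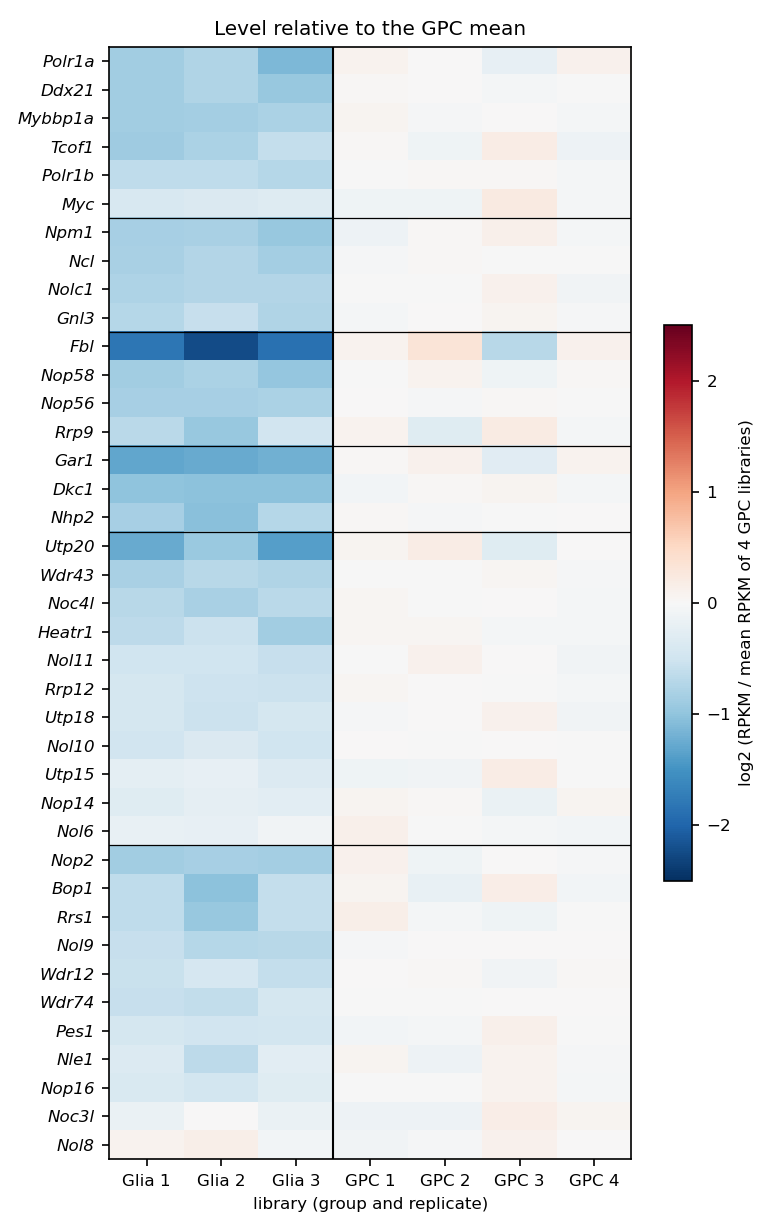
Log2 of the RPKM of each gene in each library over its mean in the 4 GPC libraries, with glia replicates 1 to 3 left of the black line and GPC replicates 1 to 4 right of it, and horizontal lines between roles. The glia columns are blue for nearly all genes, Fbl is deepest, and GPC replicate 3 is blue for Fbl, Gar1 and Utp20.

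Levels spanned a wide range within each group of libraries. The mean RPKM per gene ran from 3.82 to 255 in glia, with a median of 20.1, and from 7.30 to 464 in GPC, with a median of 32.2, where Npm1 was highest in both. Across the 39 genes the mean RPKM in GPC and the log2 change had a Spearman rho of -0.49, and both measures share the GPC libraries. In 26 of the 39 genes the SD was under 10% of the mean in both groups.

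The length behind the RPKM values differed widely, from 193 bases for Fbl and 636 for Npm1 to 8147 for Ncl and 8831 for Utp20. Over all genes tested, those with under 500 bases had a median log2 change of -0.54 and those from 500 to 1000 bases -0.19, while longer classes lay between -0.03 and 0.07. Only Fbl was in the first class and Npm1 and Nhp2 in the second, and Spearman's rho between length and log2 change over the 39 genes was 0.12. In every class from 1000 bases up the median of the genes described here lay between -0.89 and -0.55. The part of length in the change of Fbl was not tested.

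**Figure D4:**
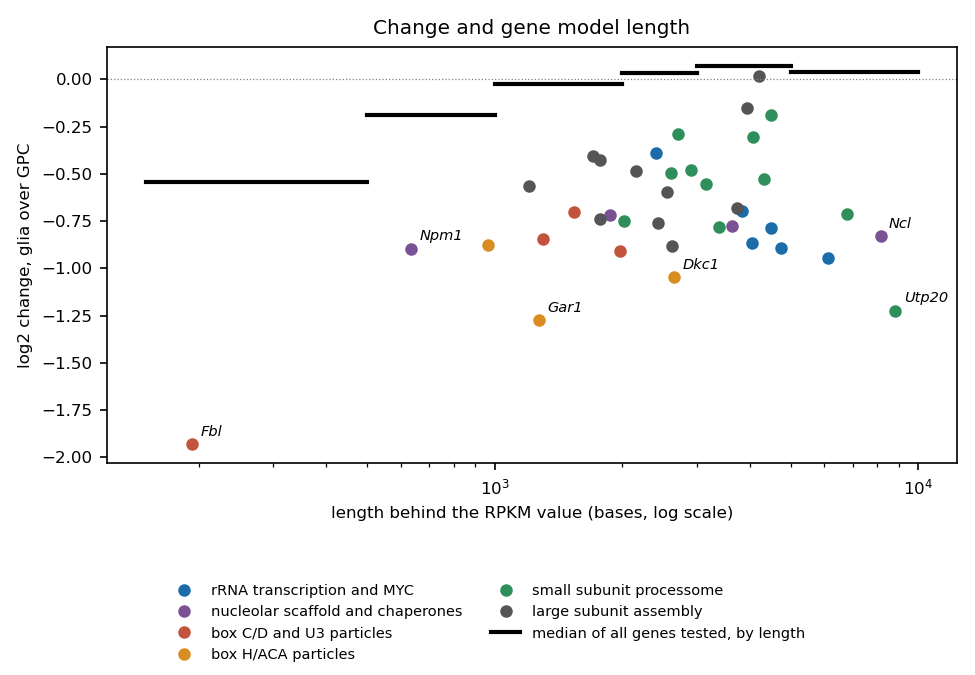
Log2 change in glia over GPC against the length behind the RPKM value (bases, log axis) for each of the 39 genes, coloured by role, with the median of all genes tested in 6 length classes as black lines. All points lie below the line of their own length class, and Fbl stands alone at the short end.

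Other genes of the pathway, from a wider list, were also lower in glia in most cases. Of 137 names, 131 were in the table and 130 were tested: 104 fell (80.0%), 3 rose and 23 did not pass, with a median log2 change of -0.54. Without GPC replicate 3, 106 fell and 4 rose. By role, transcripts fell for 35 of 42 other small subunit factors and 37 of 42 other large subunit factors. The same held for 7 of 10 other proteins of nucleolar particles. Also lower were 18 of 22 genes of RNase MRP and the exosome, which trim rRNA, and 7 of 14 other genes of RNA polymerase I. These shares stand beside 35.2% over all genes tested.

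The largest falls in these lists had values as follows. Wdr36, a processome scaffold, had 15.5, 17.1 and 14.8 RPKM in glia and 37.2, 40.1, 40.6 and 35.4 RPKM in GPC (log2 change -1.27 ± 0.08, SE). Shq1, which helps to assemble H/ACA particles, averaged 2.66 RPKM in glia and 8.96 RPKM in GPC (log2 change -1.75), and Ruvbl2, an ATPase that assembles nucleolar particles, 49.5 RPKM in glia and 108 RPKM in GPC (log2 change -1.15). Rpp25, a subunit of RNase MRP, was low, at 0.580 RPKM in glia and 3.58 RPKM in GPC (log2 change -2.61). Exosc6, an exosome subunit, had a log2 change of -1.23, Utp3 of -0.83, and the large subunit factors Ppan and Nop53 of -0.95 and -0.93.

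The genes that rose changed little. Rpp14, a subunit of RNase MRP, had a log2 change of 0.28 ± 0.06 (SE), and Utp23, a processome factor, of 0.26 ± 0.09, whose call ended in 6 of the 13 alternative settings. Polr2f, a subunit that RNA polymerases I, II and III share, averaged 498 ± 74.9 RPKM in glia and 368 ± 41.7 RPKM in GPC (log2 change 0.41 ± 0.12). The adjusted p of Polr2f was 0.0110 by edgeR, the lowest glia library (424 RPKM) was close to the highest GPC library (418 RPKM), and the call ended without glia replicate 3 (0.0543).

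Of the 14 other genes of RNA polymerase I 7 fell, 1 rose and 6 did not pass (median log2 change -0.30). The summed level of the 15 in the table averaged 876 RPKM in glia and 867 RPKM in GPC. Polr2f, the gene that rose, made up a large part of that sum in both groups, so the sum hides the falls. As a share of all gene reads the 15 took 0.0926% in glia and 0.101% in GPC. Some of the 15 are subunits shared with RNA polymerases II and III. Polr1c, a subunit shared with RNA polymerase III, averaged 39.03 RPKM in glia and 68.0 RPKM in GPC (log2 change -0.82), and Taf1d, of the promoter selectivity factor, had a log2 change of -0.65. Rrn3, the initiation factor, had a log2 change of -0.33 and Ubtf, which coats active rRNA genes, of -0.18, both named after their values were seen. The call of Ubtf (adjusted p = 0.0167 by edgeR) ended with upper quartile scaling (0.0554) and without glia replicate 1 (0.0560). Whether these changes differ from each other was not tested.

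Most genes of related families fell as well, beside 35.2% in each direction over all genes tested. Of 74 tested lines of cytosolic ribosomal proteins 67 fell and none rose, with a median log2 change of -1.04. Many of these genes rest on short stretches, with a median length of 274 bases behind the RPKM, and among the 17 with at least 500 bases 15 fell, with a median of -1.03. Rplp0, the stalk protein, named after its value was seen, averaged 259 ± 33.9 RPKM in glia and 633 ± 64.7 RPKM in GPC (log2 change -1.31). The largest falls were those of Rps29 (log2 change -3.34) and Rps23 (-2.76), both with few reads (2 to 76 in a library) and much lower in GPC replicate 3 than in the other GPC libraries. Rps29 had 3.08, 3.29 and 2.61 RPKM in glia and 41.2, 35.3, 3.53 and 44.4 RPKM in GPC. Its call (adjusted p = 0.0120 by edgeR) ended without glia replicate 3 (0.0545). Neither Rps29 nor Rps23 was tested with the replicate number as a block or without GPC replicate 1 or 2.

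Of 13 tested noncoding genes that carry small nucleolar RNAs in their introns, 9 fell and none rose, with a median of -0.68. Over all genes tested 35.2% fell and 35.2% rose. Under the alternative settings 8 to 10 of the noncoding genes fell and at most 1 rose. Snhg3 had the largest fall, with 13.3, 15.35 and 11.1 RPKM in glia and 41.8, 43.0, 22.4 and 39.1 RPKM in GPC (log2 change -1.50 ± 0.24, SE), and Snhg4 followed (-1.32).

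Transcripts of most subunits of the other RNA polymerases were lower in glia too, beside 35.2% in each direction over all genes tested. All 8 genes of subunits particular to RNA polymerase II fell, with a median of -0.53, led by Polr2a (log2 change -0.94) and Polr2c (-0.74). Of 10 genes of subunits particular to RNA polymerase III 7 fell and 2 rose, with a median of -0.48. Polr3g, a subunit known from embryonic and dividing cells, averaged 2.04 RPKM in glia and 5.11 RPKM in GPC (log2 change -1.35), and its relative Polr3gl averaged 15.4 RPKM in glia and 12.7 RPKM in GPC (log2 change 0.25). Polr3k fell (-0.91). The call of Polr3gl ended in 6 of the 13 alternative settings. No test was made of whether the genes described here differ from these families as groups.

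**Figure D5:**
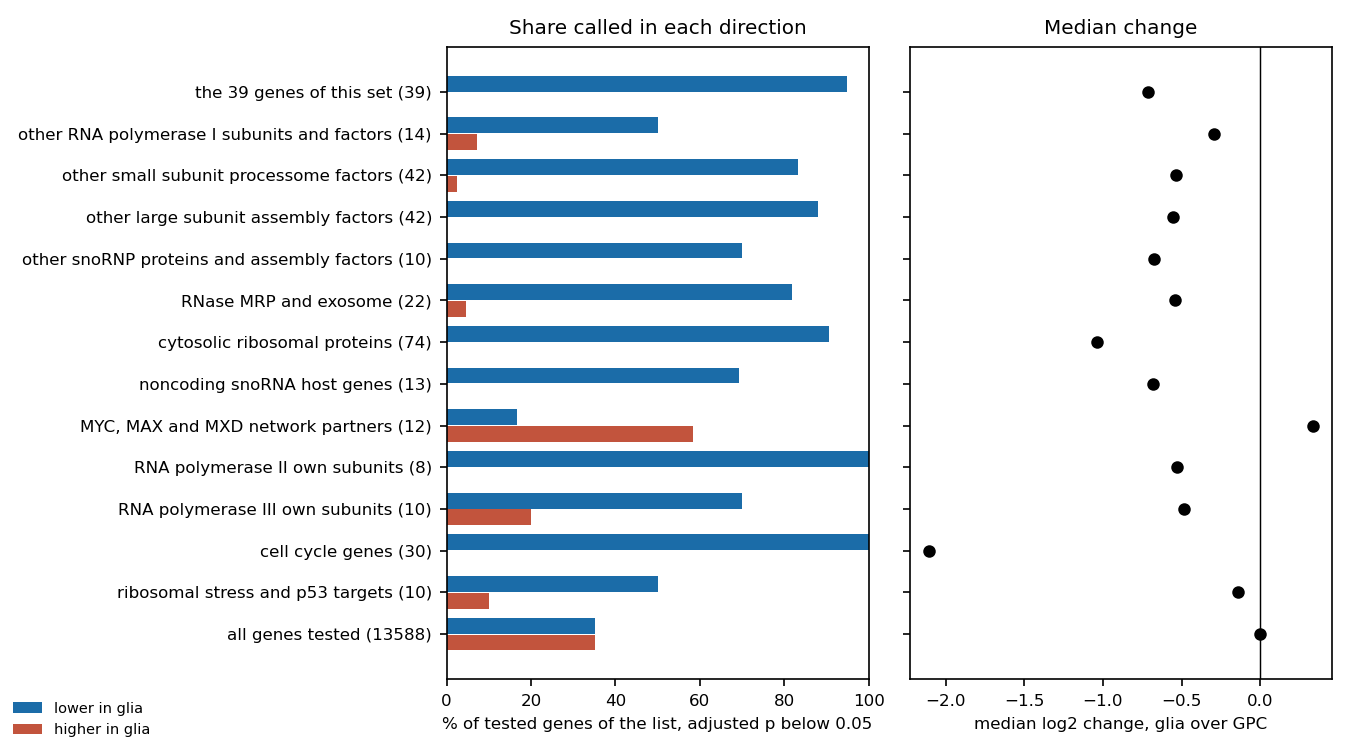
Left, share of tested genes called lower (blue) or higher (red) in glia in each list, with the number tested in brackets, on an axis from 0 to 100%; right, the median log2 change in glia over GPC of the same list. The 39 genes and their pathway lists were called lower more often than higher, the MYC network is called higher more often than lower, and all genes tested are at 35.2% in each direction.

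The cell cycle moved with the set. All 30 cell cycle genes fell, each by at least 2-fold, with a median log2 change of -2.11 beside -0.72 for the 39 genes described here. Their summed level was 560 to 579 RPKM in glia and 1994 to 2556 RPKM in GPC, and the lowest GPC value was that of replicate 3. In that library the 39 genes summed to 2060 RPKM, within the range of the other GPC libraries. Single genes of the 39 ran there from 0.548 to 1.25 times the mean of the other GPC libraries, with 25 above and 14 below it. This is 1 library, and the sum hides such differences. Cdk1, the mitotic kinase, averaged 14.9 ± 0.508 RPKM in glia and 98.9 ± 14.4 RPKM in GPC (SD, n = 3 and 4), and Bub1b, of the spindle checkpoint, had the same log2 change of -2.76. The part of cell division in the fall of ribosome biogenesis genes was not tested.

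Genes of the p53 response, which disturbed ribosome assembly is known to switch on, moved in both directions, with a median log2 change of -0.14. Of 10 tested, 5 fell, 1 rose and 4 did not pass, beside 35.2% in each direction over all genes tested. Under the alternative settings 4 or 5 fell and 1 rose. They summed to 502 to 517 RPKM in glia and 701 to 813 RPKM in GPC. Plk2 averaged 13.8 RPKM in glia and 101 RPKM in GPC (log2 change -2.90), and Cdkn1a, the gene of the inhibitor p21, averaged 65.6 ± 2.55 RPKM in glia and 128 ± 14.9 RPKM in GPC (log2 change -0.999). Gadd45a rose, at 21.4 RPKM in glia and 7.75 RPKM in GPC (log2 change 1.45).

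SOX9 peaks in GPC were paired with these genes about as often as with the whole table, and the share for SOX3 rests on 1 gene. The authors' lists pair a SOX9 peak with 4 of the 39 genes (10.3%), against 8.83% of the symbols in the table, and a SOX3 peak with 1 of the 39 (2.56%), against 4.36%. The SOX9 peak nearest to a start was at Nol6, 125 bp from it (mm9, chr4:41071063-41071663). Wdr43 had a SOX9 peak at -16915 bp from its start. Myc had a pair of SOX9 peaks that overlap each other, at 94171 and 94312 bp (mm9, chr15:61910817-61911559 in all), and Utp18 had 1 SOX9 and 2 SOX3 peaks, at 64319 bp and at 56418 and 241348 bp. Each factor has 1 list over all its samples, so no error can be given, and the NFIA list, which names no genes, was not used here.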

How the data were processed

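The expression table gives whole-number counts of reads for each gene, not normalized, and RPKM values, which the authors scaled by gene length and library reads per the file headers. The submitters' processing notes name build mm9, MACS and MACS2. No source used here names the aligner, the counting tool or the use of strand, and reads of overlapping genes or near-identical copies (Npm1 and ribosomal proteins have processed copies) cannot be told apart. By a GRCm38.p6 gene table used for names, 7 of the 39 genes overlap another protein-coding gene (Mybbp1a, Gnl3, Nop56, Dkc1, Nhp2, Bop1 and Wdr12) and 6 hold small nucleolar RNA genes.

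The deposited counts went into edgeR 4.0.16 under R 4.3.3 (TMM, filterByExpr, robust glmQLFit and glmQLFTest, glia over GPC, Benjamini-Hochberg over 13588 genes). The SE of a log2 change is its size over the square root of F. The common biological coefficient of variation was 0.108. RPKM served for levels, and whether groups overlap was counted on TMM-scaled counts. All 39 genes were named, with every library's value for Myc, the 2 largest changes per role and genes that missed the test; Nol6 was added after its values were seen. From each other list up to 2 falls and 2 rises past the threshold were named, except for a result that is not reported here. Of the pathway list 6 names did not match. DESeq2 1.42.0, other scalings, filters, left-out libraries and a replicate block were alternatives. The fits were run on simulated data with few changed genes, as many up as down, and no library that stood apart. The data here differ from that in the number of changed genes and in GPC replicate 3. Genes, lists and motifs were chosen with earlier results of these data known. Same-numbered libraries deviated from their group means with correlations of -0.02, 0.14 and 0.07, so the numbers were not taken as pairs.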

Additional observations from a re-analysis of the deposited data

Results flagged for a closer look

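A GPC library stood apart from the other 3 by Dixon's test in 4 of the 39 genes, where chance flags about 1 gene in 20. Myc was highest in GPC replicate 3, at 87.3 RPKM, 1.25 times the mean of the other GPC libraries. Nop14 and Wdr12 were lowest in GPC replicate 3, at 21.6 and 12.2 RPKM, which is 0.855 and 0.930 times the mean of the others. Nol9 was lowest in GPC replicate 1, at 20.4 RPKM, 0.979 times the mean of the others.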

How the results depend on the processing

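Under 13 alternatives 36 or 37 of the 39 genes fell and none rose, and their median log2 change lay between -0.78 and -0.67. Leaving out single libraries gave 36 or 37 and medians from -0.78 to -0.69. With the replicate number as a block 37 fell, with a median of -0.74. Among the named genes that were tested with the block, it ended the calls of Polr3gl and Utp23. Over single genes 496 of 507 values kept their direction and side of the threshold. Of the rest, 8 lost the call (Nol6 in 7 settings, Utp15 in 1), and Nol8, which is not called, reversed without GPC replicate 1 (-0.0170), glia replicate 1 (-0.000387) and glia replicate 2 (-0.0191), and reached 0.0757 without glia replicate 3. The cause was not tested. Upper quartile scaling moved the median of all genes by 0.05. Depth limits Fbl most, at 40 reads in the shallowest glia library.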
